A study of Mus musculus with 35 samples.

Results

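The Serpina3 genes of the mouse encode serine protease inhibitors of serpin clade A and lie side by side on chromosome 12. Of the 49671 genes in the count table, 6 are described here by their symbols, namely Serpina3b, Serpina3c, Serpina3f, Serpina3g, Serpina3i and Serpina3n. Serpina3b was chosen by its read counts, which rose with the mutated constructs in these same libraries, so its values are given as a description without a test, and the other members stand as its neighbours in the family. A serpin holds out a reactive loop as bait, and the protease that cuts the loop is trapped in a covalent complex. In humans the corresponding locus holds a single SERPINA3 gene, for alpha-1-antichymotrypsin, whereas the mouse locus was duplicated many times and its copies differ mainly in the reactive loop. Serpina3g, also called Spi2A, acts inside cells and inhibits cathepsins of the lysosome, and it is known as a gene induced by NF-kB and by interferon in myeloid and lymphoid cells. Serpina3n is a secreted inhibitor of granzyme B and neutrophil proteases that is typical of the acute phase.

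RNA-seq was performed on mouse lin- HSPCs, bone marrow cells depleted of cells with mature lineage markers, to ask how FG motifs and DNA binding of the leukemia fusion NUP98-HOXA9 shape expression. There were 35 libraries in 7 groups of 5. Empty carried the lentiviral vector with mCherry alone. G-NHX9 carried the full-length fusion tagged with mEGFP, which the study writes G-NHA9. The other groups carried changed forms of it, G-NHX9-8FA (8 FG motifs mutated), G-NHX9-midi (a shorter NUP98 part, from its C-terminal portion, without the GLEBS domain), G-NHX9-21FGAA (21 FG motifs mutated), G-NHX9-midi-21FGAA (the same mutations in the shorter form) and G-NHX9-DDNA (homeodomain mutated to weaken DNA binding). All groups came from C57Bl/6 bone marrow, were cultured with cytokines and were sorted for the fluorescent proteins. They were then grown for 1 week in methylcellulose with growth factors for myeloid and erythroid cells and 10 ng/mL GM-CSF. The labels give donor mice of 8 weeks for 32 libraries, 9 weeks for Empty replicate 4, 10 weeks for Empty replicate 5 and 11 weeks for G-NHX9 replicate 1. The study's methods describe cells of male and female mice isolated in parallel and each virus transduced in triplicate, whereas the labels hold 5 libraries for each group. Which libraries came from separate animals or transductions is not given in the sources used here, so the p-values measure the spread between these libraries, which may be partly technical.

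Total counts per library were between 31559914 and 75810659. Of 10 stem and progenitor markers, all 10 passed the filter on low counts and their summed level was 195 to 551 CPM (counts scaled to a library of 1e6 counts) by group mean, while 12 late neutrophil markers summed to 9420 to 25900 CPM, so mature myeloid transcripts were abundant after the week of culture. In such bulk libraries, fewer cells of a type and less RNA per cell cannot be told apart. Levels are CPM with the library sizes scaled by TMM, and folds are on the log2 scale. Differences are said to pass the test where the p-value of edgeR's quasi-likelihood method, adjusted by Benjamini-Hochberg over the 17166 genes tested, was under 0.05. The comparisons with Empty share its 5 libraries and are not independent of each other. Of the 6 members, 4 passed the filter on low counts, and 3 of these (Serpina3f, Serpina3g and Serpina3i) were open to a test.

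In GENCODE M21 (GRCm38) the cluster ran over 302 kb of chromosome 12, from 104112724 to 104414329, and 14 of the 15 genes annotated there were Serpina3 genes or pseudogenes. Serpina3b (ENSMUSG00000066364.2, chr12:104127996-104139545, plus strand), Serpina3f (ENSMUSG00000066363.12, chr12:104214544-104221129, plus) and Serpina3g (ENSMUSG00000041481.16, chr12:104236245-104241939, plus) lay in this order. Serpina3i (ENSMUSG00000079014.4) followed at chr12:104263122-104269372 on the plus strand, just beyond the transcribed pseudogene Serpina3h. Of the silent members, Serpina3c (ENSMUSG00000066361.3) lay between Serpina3b and Serpina3f at chr12:104146382-104153870 on the minus strand, and Serpina3n (ENSMUSG00000021091.8) at chr12:104406729-104414329 on the plus strand, at the far end of the cluster. No member overlapped another annotated gene. The expressed copies are close in sequence, with 88.6% identity over aligned bases between the transcripts of Serpina3f and Serpina3g and 87.7% between those of Serpina3f and Serpina3i, while Serpina3b matched Serpina3f, Serpina3g and Serpina3i at 78.1% to 79.5%. Stretches of 100 bases that also occur in another transcript made up 3.58% of Serpina3f, 4.64% of Serpina3g, 2.33% of Serpina3i and 0% of Serpina3b, and at 150 bases the share was 0% for all 4. The labels give reads of 100 cycles and the study's methods give 150 bases, so whether reads of the first 3 could fall to a neighbour depends on which holds.

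The promoters of the 4 expressed members are shown because these genes share a cluster and yet were not all highest in the same group. Mean levels of Serpina3b and Serpina3i were highest in G-NHX9-21FGAA, and those of Serpina3f and Serpina3g in G-NHX9. For Serpina3f the first of 2 RefSeq starts is shown. Each window holds 250 bases before and 50 bases after the RefSeq transcription start (GRCm38.p6, plus strand), written 5′ to 3′, with matches to the motifs searched in capitals. Serpina3b is at chr12:104127746-104128045, Serpina3f at chr12:104214294-104214593, Serpina3g at chr12:104235897-104236196 and Serpina3i at chr12:104262872-104263171.
Serpina3b: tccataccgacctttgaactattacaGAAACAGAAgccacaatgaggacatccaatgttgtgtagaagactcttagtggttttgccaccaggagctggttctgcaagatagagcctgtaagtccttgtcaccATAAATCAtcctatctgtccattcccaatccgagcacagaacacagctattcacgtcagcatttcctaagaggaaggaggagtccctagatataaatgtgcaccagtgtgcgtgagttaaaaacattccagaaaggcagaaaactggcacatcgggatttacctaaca
Serpina3f: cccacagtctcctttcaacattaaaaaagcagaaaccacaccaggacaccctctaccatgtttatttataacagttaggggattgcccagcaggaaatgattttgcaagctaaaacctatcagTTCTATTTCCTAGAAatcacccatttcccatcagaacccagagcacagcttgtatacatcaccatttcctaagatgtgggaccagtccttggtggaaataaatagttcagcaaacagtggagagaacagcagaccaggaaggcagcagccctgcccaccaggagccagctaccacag
Serpina3g: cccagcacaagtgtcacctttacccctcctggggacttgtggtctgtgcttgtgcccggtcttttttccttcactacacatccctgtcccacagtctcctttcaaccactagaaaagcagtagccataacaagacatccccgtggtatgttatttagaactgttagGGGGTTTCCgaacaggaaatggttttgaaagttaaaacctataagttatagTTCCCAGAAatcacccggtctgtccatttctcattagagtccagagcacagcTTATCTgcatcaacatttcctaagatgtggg
Serpina3i: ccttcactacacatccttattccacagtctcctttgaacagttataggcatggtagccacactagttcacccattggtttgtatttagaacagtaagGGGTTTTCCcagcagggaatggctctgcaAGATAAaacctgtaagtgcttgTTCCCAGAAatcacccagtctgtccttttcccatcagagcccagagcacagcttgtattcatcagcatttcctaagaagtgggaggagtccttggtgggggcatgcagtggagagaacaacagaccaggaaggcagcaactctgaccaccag

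The letters searched on both strands were TTCNNNGAA for STAT, GGNNTTTCC for NF-kB, GAAANNGAA for IRF, AGATAA for GATA, TGATTTAT for HOX9 with PBX or MEIS, and TTNCGCAAN for C/EBP. Among the 32851 RefSeq windows of the same length, 8.3% held the STAT letters, 5.82% NF-kB, 8.56% IRF, 11.2% GATA, 0.977% HOX9 and 0.791% C/EBP. Serpina3b held the IRF letters (GAAACAGAA) at -224 from the start and the HOX9 letters, read on the other strand as ATAAATCA, at -118. Serpina3f held STAT letters at -121 that overlap IRF letters at -127. Serpina3g and Serpina3i both held NF-kB, STAT and GATA letters, with NF-kB at -84 and -153, STAT (TTCCCAGAA in both) at -33 and -102, and GATA at 20 and -124, respectively. The silent Serpina3n held NF-kB letters at -170, and the window of Serpina3c held no match. Such matches describe the letters and were not tested against expression.

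Per exon length, Serpina3g was the dominant member in every group. Its mean level was 40.9 to 123 CPM per kb by group, against 0.594 to 16.2 for Serpina3b, 0.642 to 4.63 for Serpina3f and 0.0904 to 0.949 for Serpina3i. By mean CPM over all libraries, Serpina3g stood above 93.2% of the tested genes, Serpina3b above 48.3%, Serpina3f above 39% and Serpina3i above 26.7%. The CPM of the 6 members summed to 91 ± 20.4 in Empty (SD, n = 5), 274 ± 25.3 in G-NHX9 and 251 ± 25.2 in G-NHX9-21FGAA, and to 134 to 161 by group mean in the other 4 groups. Serpina3g made up 80.7% to 96.9% of that sum.

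**Figure D1:**
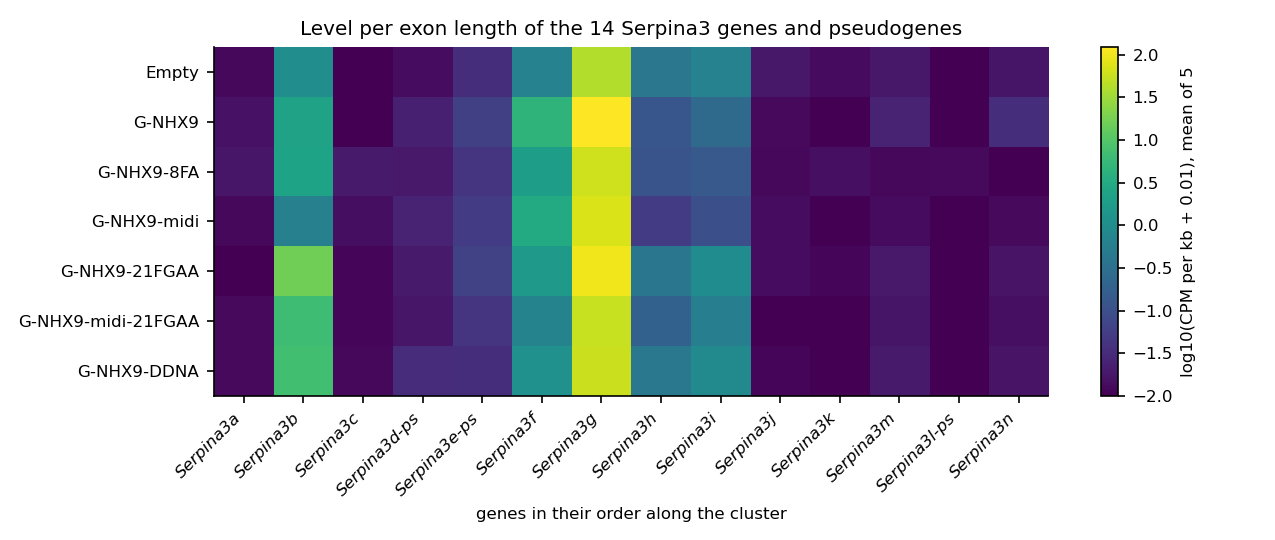
Mean level per exon length (CPM per kb, log10 colour scale, mean of 5 libraries) of the 14 Serpina3 genes and pseudogenes in their order along the cluster, by group. Serpina3g is brightest in every row (40.9 to 123 CPM per kb), Serpina3b brightens in the last 3 rows, and Serpina3c and Serpina3n stay dark.

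Serpina3b was highest with G-NHX9-21FGAA and lowest with G-NHX9-midi. Its 5 libraries of G-NHX9-21FGAA held 27.6, 40.6, 30.0, 34.7 and 35 CPM (replicates 1 to 5 in this and the following lists). Those of Empty held 0.744, 1.95, 2.01, 3.78 and 1.74 CPM. The lowest library with the 21 mutated motifs was thus well above the highest Empty library. The other 2 forms at raised levels were G-NHX9-midi-21FGAA, with 6.35, 11.5, 8.24, 16.9 and 25.3 CPM, and G-NHX9-DDNA, with 5.85, 11.4, 22.5, 21.9 and 12.3 CPM. Both lay above every Empty library and overlapped each other. Neither reached the lowest G-NHX9-21FGAA library. Levels were lower with the unmutated fusion and with 8 mutated motifs, at 3.92, 6.22, 6.58, 3.68 and 2.91 CPM in G-NHX9 and 1.44, 5.91, 5.24, 5.37 and 6.69 CPM in G-NHX9-8FA. Both overlapped Empty. In G-NHX9-midi the libraries held 0.478, 0.72, 1.43, 2.57 and 0.948 CPM, within or below the range of Empty.

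As means, Serpina3b was at 33.6 ± 5.05 CPM (SD, n = 5) in G-NHX9-21FGAA, 14.8 ± 7.21 in G-NHX9-DDNA, 13.7 ± 7.66 in G-NHX9-midi-21FGAA, 4.93 ± 2.03 in G-NHX9-8FA, 4.66 ± 1.63 in G-NHX9, 2.05 ± 1.10 in Empty and 1.23 ± 0.827 in G-NHX9-midi. In this order the first group did not overlap the second, and every later pair of neighbours overlapped. Against Empty, the log2 fold change was 4.05 for G-NHX9-21FGAA, 2.87 for G-NHX9-DDNA, 2.76 for G-NHX9-midi-21FGAA and -0.73 for G-NHX9-midi. G-NHX9 and G-NHX9-8FA differed from Empty by 1.20 and 1.28 on the log2 scale. The 3 groups with the highest levels are those of the mutated constructs that the choice of Serpina3b rests on. The mean summed level of erythroid markers was also highest in these 3 groups, though single libraries overlapped Empty and G-NHX9. The 10 markers summed to 424 to 1180 CPM in G-NHX9-21FGAA, 480 to 1100 in G-NHX9-midi-21FGAA and 435 to 1100 in G-NHX9-DDNA, against 202 to 496 in Empty, 216 to 536 in G-NHX9, 115 to 146 in G-NHX9-8FA and 137 to 186 in G-NHX9-midi. Against Empty, 7, 9 and 4 of 10 were higher in the first 3 groups and 0 lower, beside 14.7%, 9.59% and 9.85% of all genes higher. None was called in G-NHX9, and 9 and 8 of 10 were lower in G-NHX9-8FA and G-NHX9-midi. Mast cell and basophil markers summed to mean levels of 4210, 5310 and 3470 CPM in G-NHX9-21FGAA, G-NHX9-midi-21FGAA and G-NHX9-DDNA, against 2790 in Empty. Eosinophil markers summed to 1890, 1700 and 2190 CPM in the same order, against 1650 in Empty. These sums were also highest in these 3 groups, with single libraries overlapping Empty. Against Empty, 5, 5 and 1 of 12 and 1, 1 and 2 of 8 were higher, and 0 lower. The part of any of these cells in the Serpina3b levels was not tested.

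Serpina3g rose against Empty with G-NHX9 and with 3 of the 5 changed forms. Every G-NHX9 library, at 247, 246, 259, 295 and 244 CPM, lay above every Empty library, at 78.2, 86.4, 101, 106 and 59.4 CPM. Its level rose by 1.58 on the log2 scale (SE 0.23, adjusted p = 1.7e-06). In G-NHX9-21FGAA the values were 197, 189, 208, 214 and 249 CPM, again above all Empty libraries, and the rise of 1.30 passed (SE 0.22, adjusted p = 9e-05). G-NHX9-midi held 121, 142, 129, 177 and 193 CPM, also without overlap with Empty, and rose by 0.82 (SE 0.22, adjusted p = 0.0033). The 10 stem and progenitor markers summed to 165 to 215 CPM in Empty, 443 to 507 in G-NHX9, 463 to 697 in G-NHX9-21FGAA and 247 to 271 in G-NHX9-midi. They summed to 229 to 295 CPM in G-NHX9-8FA, 258 to 611 in G-NHX9-midi-21FGAA and 296 to 410 in G-NHX9-DDNA. Of these 10, 6 were higher and 1 lower in G-NHX9, 7 and 0 in G-NHX9-21FGAA, and 4 and 3 in G-NHX9-midi, where their median log2 fold change was 0.01. The share of all genes higher was 16.9%, 14.7% and 20.5%, and the share lower was 15.2%, 12.5% and 20%, in that order. Of the same 10, 5 were higher and 0 lower in G-NHX9-midi-21FGAA and 6 and 0 in G-NHX9-DDNA, the groups described next for Serpina3g. Of 5 early granule markers, 4 were higher in G-NHX9, 4 in G-NHX9-8FA, 3 in G-NHX9-midi and 5 in G-NHX9-21FGAA. In G-NHX9-midi-21FGAA 0 were higher, in G-NHX9-DDNA 5, and 0 were lower in every group. Of all genes, 13.4%, 9.59% and 9.85% were higher in G-NHX9-8FA, G-NHX9-midi-21FGAA and G-NHX9-DDNA. The part of any of these cells in the Serpina3g result was not tested.

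The other 3 forms came closer to Empty for Serpina3g. G-NHX9-8FA held 91.6, 167, 114, 176 and 117 CPM, of which 4 exceeded every Empty library, and the rise of 0.63 passed the test (SE 0.22, adjusted p = 0.033). That call was lost in 6 of 19 alternatives. Among them were those without Empty replicate 1, 2 or 5 or without G-NHX9-8FA replicate 2 or 4, with adjusted p-values of 0.06 to 0.14. In G-NHX9-midi-21FGAA the libraries held 57.1, 130, 94.2, 127 and 179 CPM and in G-NHX9-DDNA 76.3, 98.1, 129, 124 and 182 CPM. Both groups overlapped Empty, and their differences of 0.45 and 0.50 did not pass (SE 0.22 for each, adjusted p = 0.17 and 0.12). Without G-NHX9-midi-21FGAA replicate 1, the lowest library of all for this gene, the first reached 0.63 with an adjusted p-value of 0.03.

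Serpina3f, a close copy of Serpina3g whose target is less well defined, rose most with the fusion but from a low level. In Empty its libraries held 1.1, 0.689, 1.76, 2.59 and 1.19 CPM, and in G-NHX9 9.26, 6.16, 7.8, 18.9 and 10.7 CPM, without overlap. The log2 fold change was 2.86 (SE 0.47, adjusted p = 1.8e-05), and it was 2.33 (SE 0.47, adjusted p = 0.00014) for G-NHX9-midi, with 3.71, 8.91, 5.48, 7.68 and 10.9 CPM. These 2 groups had the highest Serpina3f levels and overlapped each other. G-NHX9-8FA held 1.58, 8.25, 3.6, 5.03 and 3.18 CPM and overlapped Empty, with a rise of 1.58 (SE 0.46, adjusted p = 0.01) that was 1.20 without its replicate 2 (adjusted p = 0.06). G-NHX9-21FGAA held 3.25, 2.01, 2.35, 4.94 and 5.85 CPM, with a rise of 1.34 (SE 0.46, adjusted p = 0.029). That call was lost without Empty replicate 1, 2 or 5 or without G-NHX9-21FGAA replicate 4 or 5, with adjusted p-values of 0.056 to 0.09.

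In the groups next highest in Serpina3b, Serpina3f was near Empty. G-NHX9-midi-21FGAA held 0.674, 1.24, 0.724, 1.68 and 3.36 CPM and G-NHX9-DDNA 1.82, 1.36, 2.52, 2.31 and 5.35 CPM, both overlapping Empty. Their log2 fold changes were 0.11 (SE 0.47) and 0.88 (SE 0.46) and did not pass (adjusted p = 0.91 and 0.2).

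Serpina3i, a copy with a low level, was lower than in Empty in 3 groups. The Empty libraries held 0.624, 1.56, 2.36, 2.02 and 0.643 CPM. G-NHX9-8FA held 0.117, 0.293, 0.259, 0.385 and 0.367 CPM and G-NHX9-midi 0.0598, 0.12, 0.184, 0.374 and 0.268 CPM. Neither overlapped Empty. The level fell by 2.35 on the log2 scale in G-NHX9-8FA (SE 0.48, adjusted p = 0.00036) and fell by 2.84 in G-NHX9-midi (SE 0.50, adjusted p = 2.5e-05). G-NHX9 held 0.417, 0.973, 0.783, 0.47 and 0.182 CPM, overlapping the 2 low Empty libraries, and fell by 1.34 (SE 0.45, adjusted p = 0.021). That call was lost without Empty replicate 3 or 4 or G-NHX9 replicate 5 (adjusted p = 0.051 to 0.08), and when only these 2 groups were fitted (0.053).

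With the other 3 constructs the Serpina3i libraries overlapped those of Empty. G-NHX9-21FGAA held 1.53, 2.4, 1.76, 2.56 and 2.29 CPM, G-NHX9-midi-21FGAA 0.361, 1.57, 0.802, 1.24 and 2.22 CPM, and G-NHX9-DDNA 0.661, 2.25, 2.17, 2.4 and 2.33 CPM. The log2 fold changes were 0.55 (SE 0.42), -0.20 (SE 0.42) and 0.44 (SE 0.42), and none passed (adjusted p = 0.36, 0.79 and 0.52). These are low counts, between 3 and 182 per library.

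**Figure D2:**
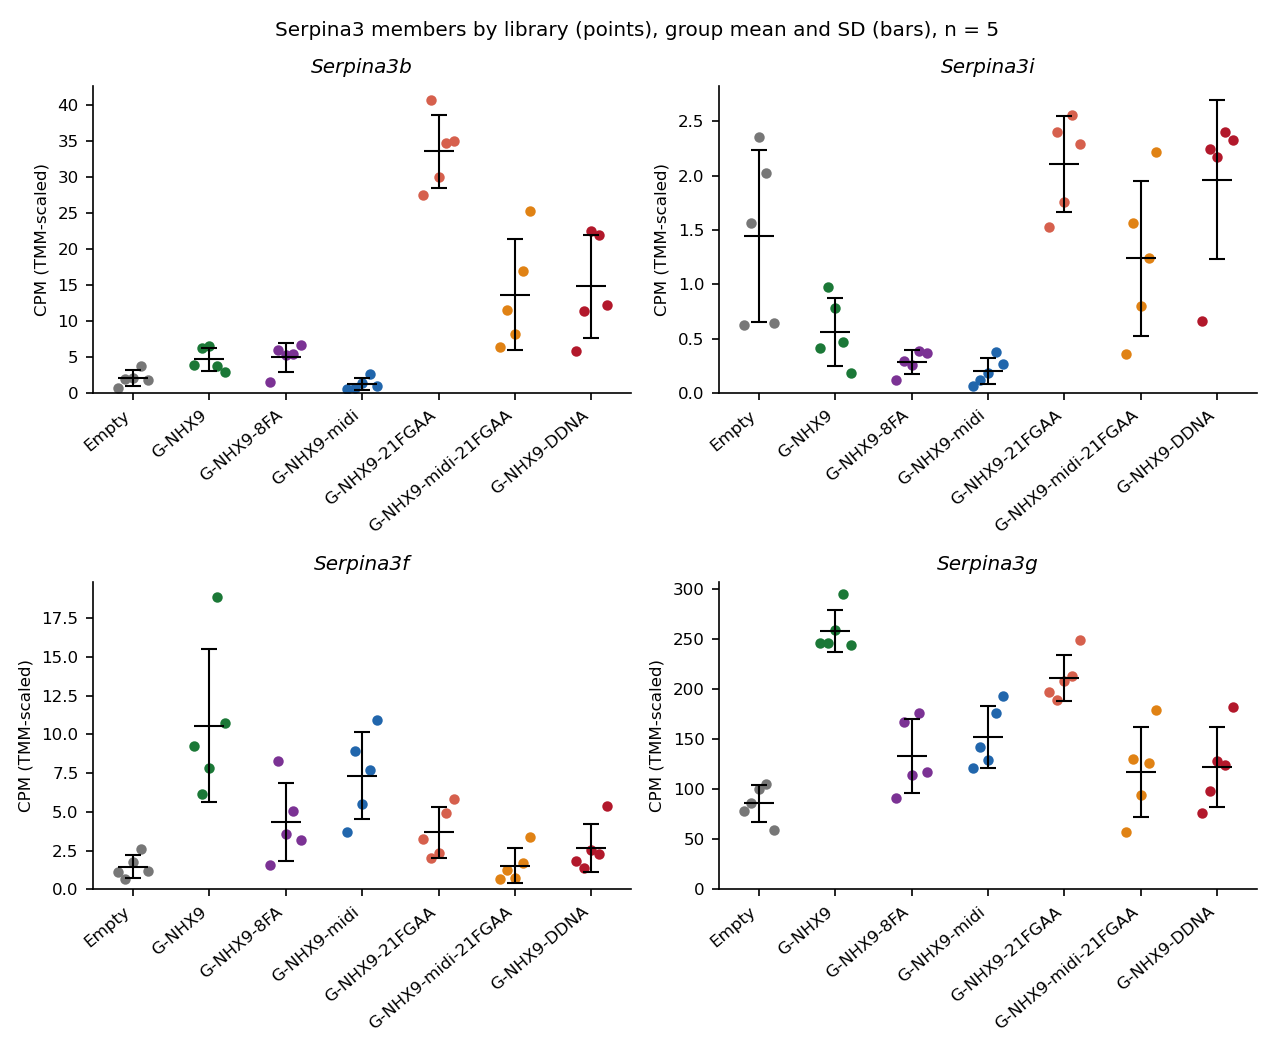
CPM of the 4 expressed members in each library (points), with the mean and SD of each group of 5 (bars, linear axes from 0). Serpina3b separates G-NHX9-21FGAA (27.6 to 40.6 CPM) from the rest, Serpina3f and Serpina3g are highest in G-NHX9, and Serpina3i is lowest in G-NHX9-midi.

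Counted over the 3 tested members, 3 of 3 passed in G-NHX9 against Empty (2 higher, 1 lower), where 32.1% of all tested genes did (16.9% higher, 15.2% lower). In G-NHX9-8FA and G-NHX9-midi against Empty it was again 3 of 3 (2 higher, 1 lower), beside 26.6% of all genes (13.4% higher, 13.2% lower) and 40.5% (20.5% higher, 20% lower). In G-NHX9-21FGAA 2 of 3 were higher, beside 27.1% of all genes (14.7% higher, 12.5% lower). In G-NHX9-midi-21FGAA and G-NHX9-DDNA 0 of 3 passed edgeR's test, beside 16.9% of all genes (9.59% higher, 7.32% lower) and 17.2% (9.85% higher, 7.35% lower). At an unadjusted p under 0.05 the numbers were 0 and 1, and DESeq2 called 0 in both. With 3 members, these counts are a description of single genes and not of a set.

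**Figure D3:**
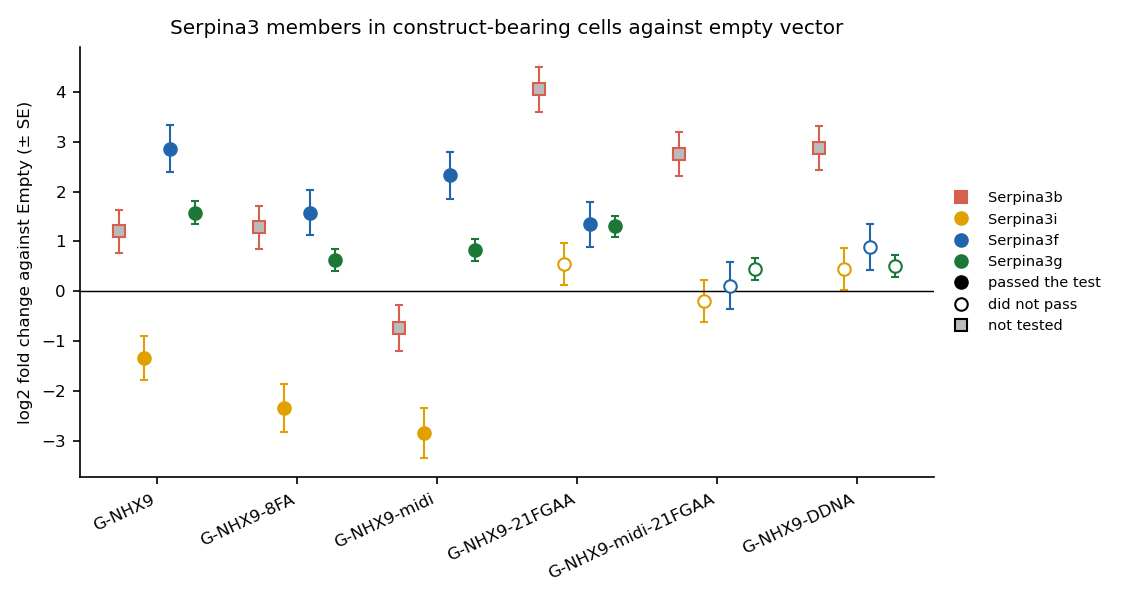
Log2 fold change against Empty (± SE, model over all 35 libraries) of the 4 expressed members in the 6 construct groups. Filled circles passed the test, open circles did not, and squares mark Serpina3b, which was not tested. Its SE bars come from the F value of edgeR's fit and are no evidence for the rise it was chosen by. Serpina3f and Serpina3i move apart in the first 3 groups (2.86 and -1.34 in G-NHX9) and not in the last 3.

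The transcribed pseudogene Serpina3h lies between Serpina3g and Serpina3i, shares 93.9% of aligned bases with Serpina3i and is no member. Over the 35 libraries it varied with Serpina3i (r = 0.9, rho = 0.87). Its mean was 0.578 CPM in Empty, 0.163 in G-NHX9, 0.15 in G-NHX9-8FA and 0.0583 in G-NHX9-midi. It fell by 1.77 (SE 0.56, adjusted p = 0.014), 1.95 (SE 0.56, adjusted p = 0.0094) and 3.21 (SE 0.64, adjusted p = 0.00013) on the log2 scale. In G-NHX9-21FGAA, G-NHX9-midi-21FGAA and G-NHX9-DDNA it differed from Empty by -0.01, -1.12 and 0.07, and none passed (adjusted p = 0.99, 0.13 and 0.95). Its counts were low, at most 52 in a library, and the G-NHX9-midi libraries held 13 in all, with 2 at 0. The other Serpina3 genes of the cluster, including Serpina3a, Serpina3j, Serpina3k and Serpina3m, did not pass the filter. Serpina3h and Serpina3i share stretches of 100 bases but none of 150 bases.

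Serpina3c, expressed in other tissues, and Serpina3n had next to no reads. Serpina3c held at most 3 counts in a library and 9 in all, with 28 of 35 libraries at 0. Serpina3n held at most 4 counts and 25 in all, with 22 libraries at 0. A count of 0 allows up to 3 counts, or 0.0382 to 0.0996 CPM depending on the library, which covers counting error only. Only 1 library exceeded this limit for Serpina3n and 0 for Serpina3c, and differences between groups were not tested for either. The counts of Serpina3n were 3 in Empty, 10 in G-NHX9, 0 in G-NHX9-8FA and 1 in G-NHX9-midi. They were 4 in G-NHX9-21FGAA, 4 in G-NHX9-midi-21FGAA and 3 in G-NHX9-DDNA.

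Of the changed forms, 4 were compared with G-NHX9 directly, and Serpina3g, Serpina3f or both fell in each of the 4. With 8 motifs mutated, Serpina3g fell by 0.95 (SE 0.22, adjusted p = 0.0034) and Serpina3f by 1.28 (SE 0.44, adjusted p = 0.045), 2 of 3 members where 14.5% of genes passed. The Serpina3f call was lost without any of G-NHX9 replicate 4 or 5 or G-NHX9-8FA replicate 1, 3, 4 or 5 (adjusted p = 0.061 to 0.16). In the shorter form, Serpina3g fell by 0.76 (SE 0.22, adjusted p = 0.014) and Serpina3i by 1.5 (SE 0.52, adjusted p = 0.038), again 2 of 3, beside 19.7% of genes. The latter call was lost without G-NHX9 replicate 2, 3 or 4 or G-NHX9-midi replicate 1, 2 or 3 (adjusted p = 0.05 to 0.13).

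The 21 mutated motifs in the full-length fusion raised Serpina3i by 1.89 (SE 0.44, adjusted p = 0.0023) and lowered Serpina3f, which fell by 1.52 (SE 0.44, adjusted p = 0.013), 2 of 3 where 17.2% of genes passed. Serpina3g differed by -0.29 (SE 0.22) and did not pass (adjusted p = 0.46). Without G-NHX9 replicate 4, the library with the most Serpina3f, the adjusted p of Serpina3f was 0.076. Weakened DNA binding changed 3 of 3 members (22.1% of genes). Serpina3i rose by 1.78 (SE 0.45, adjusted p = 0.0034), Serpina3g fell by 1.08 (SE 0.22, adjusted p = 0.00049) and Serpina3f fell by 1.98 (SE 0.45, adjusted p = 0.0013).

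In the shorter form the 21 mutated motifs raised Serpina3i by 2.64 (SE 0.50, adjusted p = 5.3e-05), and Serpina3f fell by 2.23 (SE 0.46, adjusted p = 0.00017), 2 of 3 members in a comparison where 43.2% of all genes passed. Serpina3g differed by -0.38 (SE 0.22, adjusted p = 0.17), and by -0.56 without G-NHX9-midi-21FGAA replicate 5 (adjusted p = 0.043). It passed in 2 of 19 alternatives, this one included. The effect of the mutations did not differ between the full-length and the shorter form beyond error for any of the 3 members, with 0 of 3 passing edgeR's interaction test (12.6% of genes), 0 at an unadjusted p under 0.05 and 0 by DESeq2. The difference of the effects was -0.75 (95% interval -2.04 to 0.54) for Serpina3i, 0.09 (-0.52 to 0.70) for Serpina3g and 0.71 (-0.51 to 1.93) for Serpina3f on the log2 scale. These intervals are wide.

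Between the constructs with mutated motifs or weakened DNA binding, few differences passed. G-NHX9-21FGAA exceeded G-NHX9-midi-21FGAA in Serpina3g by 0.85 (SE 0.22, adjusted p = 0.029), 1 of 3 members where 3.01% of genes passed, and it lost the call without G-NHX9-21FGAA replicate 3 or 5 or G-NHX9-midi-21FGAA replicate 1, 3 or 4 (adjusted p = 0.057 to 0.095). With the replicate number as a block, Serpina3f also passed there (adjusted p = 0.031), as it did without G-NHX9-midi-21FGAA replicate 5 (1.76, adjusted p = 0.026). Against G-NHX9-DDNA, G-NHX9-21FGAA differed in Serpina3g by 0.79 (SE 0.22), and all its libraries were higher, but the adjusted p was 0.082, so 0 of 3 passed by edgeR (1.04% of genes), 1 at an unadjusted p under 0.05 and 1 by DESeq2. The block brought that adjusted p to 0.012, and leaving out G-NHX9-DDNA replicate 5 to 0.015. G-NHX9-DDNA and G-NHX9-midi-21FGAA differed in 0 of 3 (0.915% of genes), with 0 unadjusted and 0 by DESeq2.

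G-NHX9-21FGAA exceeded G-NHX9-8FA in Serpina3i by 2.90 (SE 0.48, adjusted p = 1.6e-05) and in Serpina3g by 0.66 (SE 0.22, adjusted p = 0.02), 2 of 3 where 32.4% of genes passed. The Serpina3g call was lost without G-NHX9-8FA replicate 1 (adjusted p = 0.057). G-NHX9-midi and G-NHX9-8FA differed in 0 of 3 (4.25% of genes), with 0 unadjusted and 0 by DESeq2.

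Set beside Serpina3g in the same library, Serpina3b and Serpina3f behaved differently. Serpina3b stood at a median of 2.26% of the Serpina3g CPM in Empty (range, 0.951% to 3.58%) and 1.59% in G-NHX9 (1.2% to 2.54%). It stood at 14.4% in G-NHX9-21FGAA (14% to 21.5%), 11.6% in G-NHX9-DDNA (6.73% to 17.7%) and 11.1% in G-NHX9-midi-21FGAA (8.74% to 14.2%). In these 3 groups every library exceeded every library of the other 4 groups. The ratio uses the level by which Serpina3b was chosen and is therefore a description.

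Serpina3f stood at a median of 3.75% of Serpina3g in G-NHX9 (2.5% to 6.4%) and 4.35% in G-NHX9-midi (3.07% to 6.29%), above every Empty library (0.797% to 2.45%). It stood at 1.65% in G-NHX9-21FGAA (1.06% to 2.35%) and 1.18% in G-NHX9-midi-21FGAA (0.768% to 1.88%), both overlapping Empty.

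**Figure D4:**
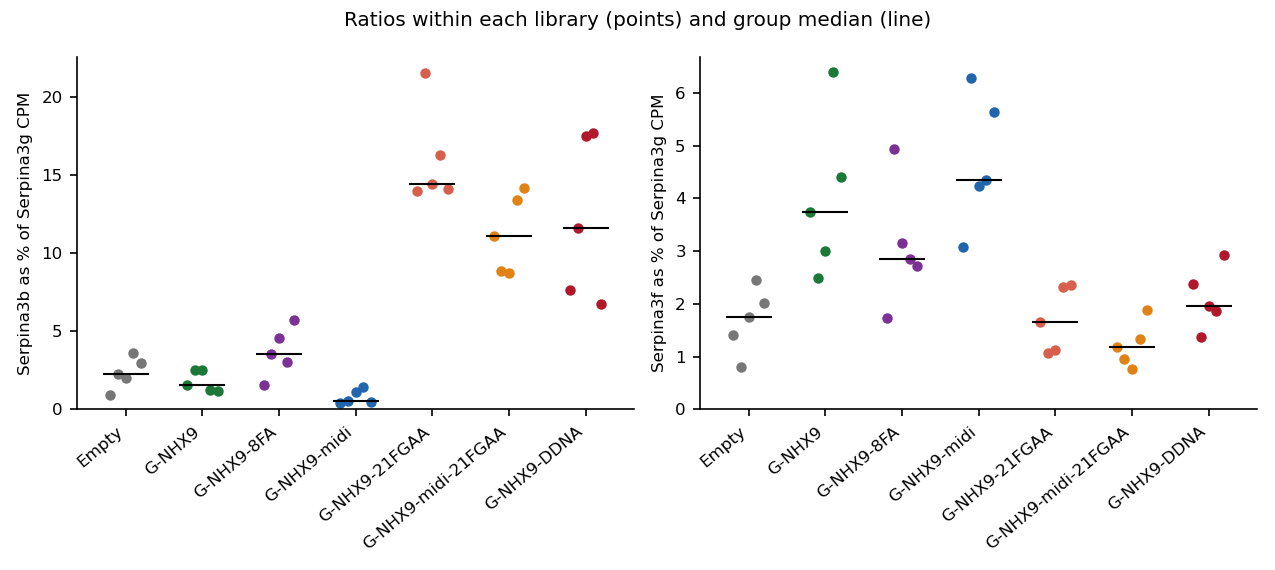
Serpina3b (left) and Serpina3f (right) as a percent of the Serpina3g CPM in the same library (points), with the group median (line). On the left the 3 groups at the right stand apart, with every library at 6.73% or more. On the right G-NHX9 and G-NHX9-midi are highest.

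Serpina3f and Serpina3g varied together (Pearson r = 0.81, Spearman rho = 0.79 of log2 CPM, and r = 0.79 with group means taken off). So did Serpina3b and Serpina3i (r = 0.74, rho = 0.72, and 0.83 with group means taken off). Serpina3b and Serpina3f did not (r = -0.11, rho = -0.14), nor did Serpina3g and Serpina3i (r = 0.09). With group means taken off, however, r was 0.45 for Serpina3b and Serpina3f and 0.75 for Serpina3g and Serpina3i. The libraries share their group and their depth scaling, and these values carry no test. Without the 2 libraries farthest from the median, r was 0.76 for the first pair and 0.68 for the second.

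The gene most like Serpina3b was Timp3, a secreted inhibitor of metalloproteinases, with r = 0.95 over 35 libraries (rho = 0.92, 0.94 without the 2 libraries farthest from the median, and 0.90 with group means taken off). It was followed by Casp12 (0.94), Atoh8 (0.91), Ehd3 (0.91) and Trpc6 (0.90). Timp3 was at 134 ± 47.8 CPM in G-NHX9-21FGAA, 72.8 ± 38.1 in G-NHX9-DDNA, 62.9 ± 33 in G-NHX9-midi-21FGAA and 21.9 ± 7.42 in Empty (SD, n = 5 for each). For Serpina3f the closest was Thy1, the surface antigen CD90 (r = 0.93, rho = 0.93, within groups 0.88, 0.91 without the 2 farthest libraries), at 209 ± 64.2 CPM in G-NHX9, 103 ± 39.7 in G-NHX9-midi and 15.8 ± 7.38 in Empty. It was followed by Bhlha15 (0.91), Armcx4 (0.90), D630039A03Rik (0.89) and A230050P20Rik (0.88). Serpina3g was most like Map7 (0.86), Rab38 (0.85), Heg1 (0.83), Pfkm (0.82) and Rtn4r (0.82), and the likeness to Map7 was 0.58 with group means taken off.

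Serpina3i varied with transcripts of megakaryocytes and platelets. Its closest genes were Esam (r = 0.95, rho = 0.94, 0.81 within groups), Itga2b, the platelet integrin subunit CD41 (0.95), Pf4, platelet factor 4 (0.94), Pde3a (0.94) and Clec1b, a platelet receptor (0.94). All 8 megakaryocyte markers of the list were tested. They summed to 803 to 1450 CPM in Empty, 385 to 931 in G-NHX9, 308 to 390 in G-NHX9-8FA and 145 to 263 in G-NHX9-midi. In the other groups the sums were 1220 to 2420 in G-NHX9-21FGAA, 888 to 1460 in G-NHX9-midi-21FGAA and 742 to 1670 in G-NHX9-DDNA. Against Empty, 4 of 8 were lower in G-NHX9, 8 of 8 in G-NHX9-8FA and 8 of 8 in G-NHX9-midi, and none of the 8 was at 0. With this sum, Serpina3i had r = 0.93 (rho = 0.92, and 0.92 without the 2 farthest libraries) over the 35 libraries. Markers of eosinophils were also lower in G-NHX9, G-NHX9-8FA and G-NHX9-midi (5, 8 and 8 of 8), as were those of mast cells and basophils (8, 9 and 10 of 12). Erythroid markers were lower in G-NHX9-8FA and G-NHX9-midi (9 and 8 of 10). Of all genes, 15.2%, 13.2% and 20% were lower in G-NHX9, G-NHX9-8FA and G-NHX9-midi. The part of any of these cells in the Serpina3i result was not tested.

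**Figure D5:**
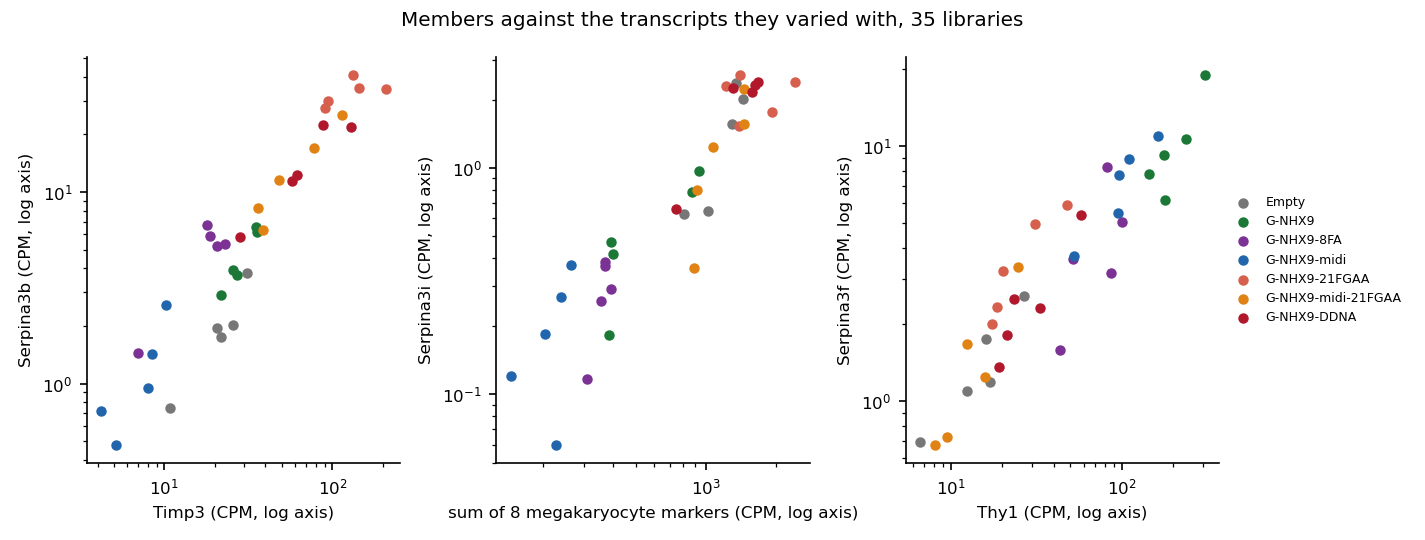
Serpina3b against Timp3 (left), Serpina3i against the sum of 8 megakaryocyte markers (middle) and Serpina3f against Thy1 (right), in CPM on log axes, with 1 point for each of 35 libraries coloured by group. Each pair rises together, with r of 0.95, 0.93 and 0.93 on log2 CPM.

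The genes below come from lists of related function and are counted against Empty, where the 17166 tested genes had a median change on the log2 scale of 0.01 in G-NHX9, 0.03 in G-NHX9-8FA, 0.02 in G-NHX9-midi and -0.02 in G-NHX9-21FGAA. Each count stands beside the share of all genes that passed, which was 16.9% higher and 15.2% lower in G-NHX9, and 14.7% higher and 12.5% lower in G-NHX9-21FGAA. Of 39 further serpins outside clade A, 20 were tested. In G-NHX9 4 were higher and 6 lower than in Empty, and the median log2 fold change was -0.01. In G-NHX9-21FGAA 2 were higher and 2 lower, with a median of 0.19. Serpinb1a, an inhibitor of neutrophil proteases with a mean of 387 CPM over all libraries, was at 418 ± 66.3 CPM in G-NHX9-21FGAA and 268 ± 56.2 in Empty (log2 fold change 0.64, SE 0.13, adjusted p = 0.00045). Serpine2, a thrombin inhibitor, rose by 1.51 there (SE 0.26, adjusted p = 9e-05). Serpinf1, for pigment epithelium-derived factor, rose by 3.21 in G-NHX9 (SE 0.28, adjusted p = 8.3e-11). The 15 other clade A serpins outside the cluster did not pass the filter.

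Serine proteases of granules, some of which serpins of this family can trap, moved in both directions. Of 19 serine proteases of granules, 15 were tested, and in G-NHX9-21FGAA 8 were higher and 0 lower than in Empty by edgeR, with a median of 0.95. In G-NHX9 5 were higher and 7 lower, in G-NHX9-8FA 5 and 8 (13.4% and 13.2% of all genes), and in G-NHX9-midi 4 and 9 (20.5% and 20% of all genes). Ctsg, cathepsin G, a target of alpha-1-antichymotrypsin, was at 228 ± 26.5 CPM in G-NHX9-21FGAA and 73.7 ± 29.3 in Empty, a rise of 1.63 (SE 0.29, adjusted p = 0.00012). Mcpt4, a mast cell chymase, fell by 3.84 in G-NHX9 (SE 0.48, adjusted p = 1.6e-07). Of this list, Ctsg, Elane and Prtn3 are also early granule markers, and Mcpt4, Mcpt8, Tpsab1, Tpsb2, Cma1 and Prss34 mast cell and basophil markers. In G-NHX9-21FGAA 5 of 5 early granule and 5 of 12 mast cell and basophil markers were higher than in Empty. The latter were lower in G-NHX9, G-NHX9-8FA and G-NHX9-midi (8, 9 and 10 of 12), while 4, 4 and 3 of 5 early granule markers were higher. Their part here was not tested.

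Cysteine cathepsins, some of which Serpina3g inhibits, were lower wherever they passed against Empty. Of 10 listed, 9 were tested, and 8 were lower in G-NHX9, 5 in G-NHX9-8FA, 9 in G-NHX9-midi, 8 in G-NHX9-21FGAA, 3 in G-NHX9-midi-21FGAA and 6 in G-NHX9-DDNA. In the same order, 15.2%, 13.2%, 20%, 12.5%, 7.32% and 7.35% of all genes were lower. Ctss, the most abundant with a mean of 2660 CPM over all libraries, was at 4670 ± 743 CPM in Empty and 1730 ± 573 in G-NHX9 (log2 fold change -1.43, SE 0.21, adjusted p = 2.4e-06). The list's median was -1.0 in G-NHX9 and -0.74 in G-NHX9-21FGAA. The 12 macrophage markers, whose cells are rich in these enzymes, summed to 2810 to 3630 CPM in Empty and 1500 to 2570 in G-NHX9. One by one they went both ways there, with 4 higher, 3 lower and a median log2 fold change of 0.28. Of the 12, 1 was higher and 3 lower in G-NHX9-8FA, 1 and 7 in G-NHX9-midi, and 1 and 4 in G-NHX9-21FGAA. In G-NHX9-midi-21FGAA 1 was higher and 1 lower, and in G-NHX9-DDNA 1 and 2. Their medians were -0.26, -0.5, -0.24, 0.03 and -0.25 in these 5 groups. The part of these cells in the cathepsin result was not tested.

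NF-kB and STAT factors act on several of these genes elsewhere. Of 25 listed members and regulators of these pathways, 24 were tested. In G-NHX9 3 were higher and 5 lower, with a median of -0.02, a share near the 32.1% of all genes that passed there, and in G-NHX9-21FGAA 1 was higher and 9 lower, with a median of -0.25, beside 14.7% and 12.5% of all genes. Socs2, a feedback inhibitor of STAT5 signalling, rose by 1.26 in G-NHX9 (SE 0.10, adjusted p = 8.1e-12), from 26.6 ± 2.57 to 63.6 ± 1.83 CPM. Il6st, the shared receptor subunit of the IL-6 family, fell by 1.02 (SE 0.19, adjusted p = 0.00012). Of 17 acute-phase genes 9 were tested, and in G-NHX9 0 were higher and 3 lower by edgeR, while in G-NHX9-8FA 4 were higher and 1 lower, beside 13.4% and 13.2% of all genes. Saa3, an acute-phase apolipoprotein, rose by 1.70 in G-NHX9-8FA (SE 0.47, adjusted p = 0.0071) and by 2.16 in G-NHX9-midi (SE 0.48, adjusted p = 0.00048), groups in which Serpina3n stayed at or near 0.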

How the data were processed

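RNA-seq was performed on 35 libraries of cultured mouse lin- HSPCs, 5 in each of 7 groups named by the labels. Per the labels, the authors used STAR 2.7.0d, HTSeq 0.11.2 and mm10 and deposited raw read counts per gene, which were used unchanged. Whether strand was counted is not given in the sources used here.

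The 17166 of 49671 genes that passed filterByExpr were scaled by TMM and fitted in edgeR 4.0.16 (R 4.3.3) with 1 mean for each group over all libraries, a quasi-likelihood test and Benjamini-Hochberg adjustment. Each SE was taken as the absolute log2 fold change divided by the square root of the F value of that test. The members, lists and comparisons were chosen with earlier results of these data known, and Serpina3b was given no test. Genes named are the members, the 5 with the highest Pearson r to each (log2 CPM, prior count 2, mean CPM of 1 or more) and, of each list, the most abundant or most changed. Serpina3h and some list genes were added after their values were seen. Positions are from GENCODE M21, and promoters from RefSeq.

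Deviations from group means correlated at 0.232 between libraries with the same replicate number and at -0.0571 otherwise. The second value follows largely from the first, since deviations within each group cancel out. All 5 pairs exceeded 0.1 in 7 of 16 comparisons. No library was a copy of another in its group. Alternatives were no TMM, other size factors and filters, the replicate block, a score for sex-linked transcripts, a fit to the groups compared, DESeq2 1.42.0 and libraries left out.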

Additional observations from a re-analysis of the deposited data

Results flagged for a closer look

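In 35 groups of 5 libraries checked (5 Serpina3 genes in 7 groups), 2 held a library far from the other 4. Independent checks would flag about 1 in 20 groups, but these checks share their libraries. Both flagged libraries were numbered 1. Serpina3b was at 1.44 CPM in G-NHX9-8FA replicate 1 and at 5.24 to 6.69 CPM in the other 4 libraries. Serpina3i was at 0.661 CPM in G-NHX9-DDNA replicate 1 and at 2.17 to 2.4 CPM in the others.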

How the results depend on the processing

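No called difference of a member reversed its direction under the alternatives run. Against Empty, the number of called members in G-NHX9-DDNA was 1 without TMM factors (Serpina3g, 0.63, adjusted p = 0.045), where the median of all genes shifted to 0.12. Fitted to the groups compared only, it was 1 in G-NHX9-8FA against G-NHX9, 1 in G-NHX9-midi against G-NHX9 and 0 in G-NHX9-21FGAA against G-NHX9-midi-21FGAA. With no filter it was 1 in G-NHX9-midi against G-NHX9. Blocking on the replicate number gave 2 in G-NHX9-21FGAA against G-NHX9-midi-21FGAA and 1 in G-NHX9-21FGAA against G-NHX9-DDNA, and the block changed no other call of a member. In the latter it was also 1 with the sex-linked score and 1 by DESeq2. The cause was not tested.

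With libraries left out (each alone, or all 7 numbered 1, an alternative chosen after seeing the data), the number of called members (of 3) ranged, against Empty, from 2 to 3 in G-NHX9, 1 to 3 in G-NHX9-8FA, 3 to 3 in G-NHX9-midi, 1 to 2 in G-NHX9-21FGAA, 0 to 1 in G-NHX9-midi-21FGAA and 0 to 1 in G-NHX9-DDNA. Against G-NHX9 it ranged from 1 to 2 in G-NHX9-8FA, G-NHX9-midi and G-NHX9-21FGAA. It was 3 throughout in G-NHX9-DDNA. Others ranged from 2 to 3 in G-NHX9-midi-21FGAA against G-NHX9-midi, 1 to 2 in G-NHX9-21FGAA against G-NHX9-8FA, 0 to 2 against G-NHX9-midi-21FGAA and 0 to 1 against G-NHX9-DDNA. Serpina3c and Serpina3n are limited by depth.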

Other observations

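Libraries numbered 1 held the lowest Serpina3b level of their group in 6 of 7 groups and the lowest Serpina3i level in 6 of 7, and the lowest Serpina3g level in 4 of 7. This was noticed after the values were seen, and what the number stands for is not given in the sources used here. Without the 7 libraries numbered 1, Serpina3g passed the test against Empty in G-NHX9-midi-21FGAA (log2 fold change 0.60, adjusted p = 0.038, edgeR) and in G-NHX9-DDNA (0.61, adjusted p = 0.042). Calls were lost there for Serpina3f in G-NHX9-21FGAA against Empty (1.31, adjusted p = 0.051) and in G-NHX9-8FA against G-NHX9 (-1.12, adjusted p = 0.12), and for Serpina3g in G-NHX9-21FGAA against G-NHX9-midi-21FGAA (0.70, adjusted p = 0.1).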
